A study of Homo sapiens with 9 samples.

Results

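The BCL2 family decides between survival and death at the mitochondrion, and 10 of its genes were followed here through ERRα knockdown and imatinib in T1 cells. They were taken by gene symbol from a table of 61209 symbols: the survival genes BCL2, BCL2L1 (BCL-XL) and MCL1, and the BH3-only genes BCL2L11 (BIM), BMF, BBC3 (PUMA), PMAIP1 (NOXA), HRK, BAD and BID. Each symbol had a row, and all 10 were among the 16976 genes that passed the filter on low counts. PolyA RNA was sequenced in bulk from T1 cells (GIST-T1), a human GIST line that responds to imatinib and carries KIT exon 11 del560-79 in every group. Cells received by lipofection either a non-target siRNA (siNC, libraries S1, S2 and S3), an siRNA to ESRRA, the gene of ERRα (siERRα, S4, S5 and S6), or the non-target siRNA together with 50 nM imatinib, a KIT inhibitor (S16, S17 and S18), and were harvested after 48 h. No group received both siERRα and imatinib. Cells were plated in triplicate from 1 line, and nothing further is said of separate cultures, so p-values measure the spread between these libraries, which may be technical.

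Survival members of the family hold the pore formers BAX and BAK1 in check, while BH3-only proteins, named for the short helix with which they bind, occupy the survival proteins or switch on the pore formers directly. Each BH3-only gene answers to its own signal, among them growth factor loss for BIM, cytoskeletal stress for BMF and DNA damage for PUMA and NOXA. In GIST, KIT signalling is known to restrain BIM, and imatinib is known to raise it.

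Library totals ran from 37527236 to 49363002 counts, and levels are given as CPM, counts scaled to the TMM-adjusted size of each library. ESRRA averaged 42.1 ± 2.24 CPM in siNC, 1.17 ± 0.356 CPM in siERRα and 32.7 ± 2.7 CPM with imatinib (SD, n = 3 each). The 8 GIST markers checked were all expressed, with summed levels of 4017 to 4433 CPM over the 9 libraries, and KIT alone stood at 1272 to 1630 CPM. The leukocyte marker PTPRC reached at most 1 count in a library and the endothelial marker PECAM1 at most 3. Summed levels of 5 smooth muscle markers, mostly ACTA2 and TAGLN, were 495 to 524 CPM in siNC, 324 to 344 CPM in siERRα and 593 to 638 CPM with imatinib. Those of 12 leukocyte, endothelial and epithelial markers, mostly KRT18, were 305 to 317, 282 to 304 and 197 to 226 CPM. Mitochondrially encoded genes took 0.846% to 1.03% of counts in the 6 libraries without imatinib and 1.48% to 1.54% with it. The part of these shifts in the results below was not tested.

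The death genes did not move as a block. After ERRα knockdown BCL2, BCL2L1 and BCL2L11 rose, BMF and PMAIP1 fell, and MCL1, BBC3, HRK, BAD and BID did not pass the test, which was edgeR's quasi-likelihood test with Benjamini-Hochberg adjustment over all 16976 genes and a threshold of 0.05. These 3 of 10 higher and 2 of 10 lower stand beside 11.4% and 12.6% of all genes called higher and lower in the same comparison. With imatinib BCL2L11, BMF and BAD rose, BCL2L1, MCL1, PMAIP1, HRK and BID fell, and BCL2 and BBC3 did not pass, 3 higher and 5 lower beside 21.4% and 20.3% of all genes. In the direct comparison of siERRα with imatinib, 7 members were higher and 2 lower in siERRα, beside 25.6% and 26.6% of all genes. The median log2 fold change over the 10 members was 0.14, −0.20 and 0.36 in the 3 comparisons, beside 0.01, 0.00 and −0.00 over all genes tested. With an absolute log2 fold change of 0.5 or more asked for as well, 0 members were higher and 1, BMF, was lower after knockdown, beside 1.98% and 5.28% of all genes. With imatinib BCL2L11 was higher and PMAIP1 and HRK were lower at that threshold, beside 10.6% and 7.02% of all genes. In siERRα against imatinib BCL2L1, PMAIP1 and HRK were higher and BMF was lower, beside 10.6% and 15.7%.

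**Figure D1:**
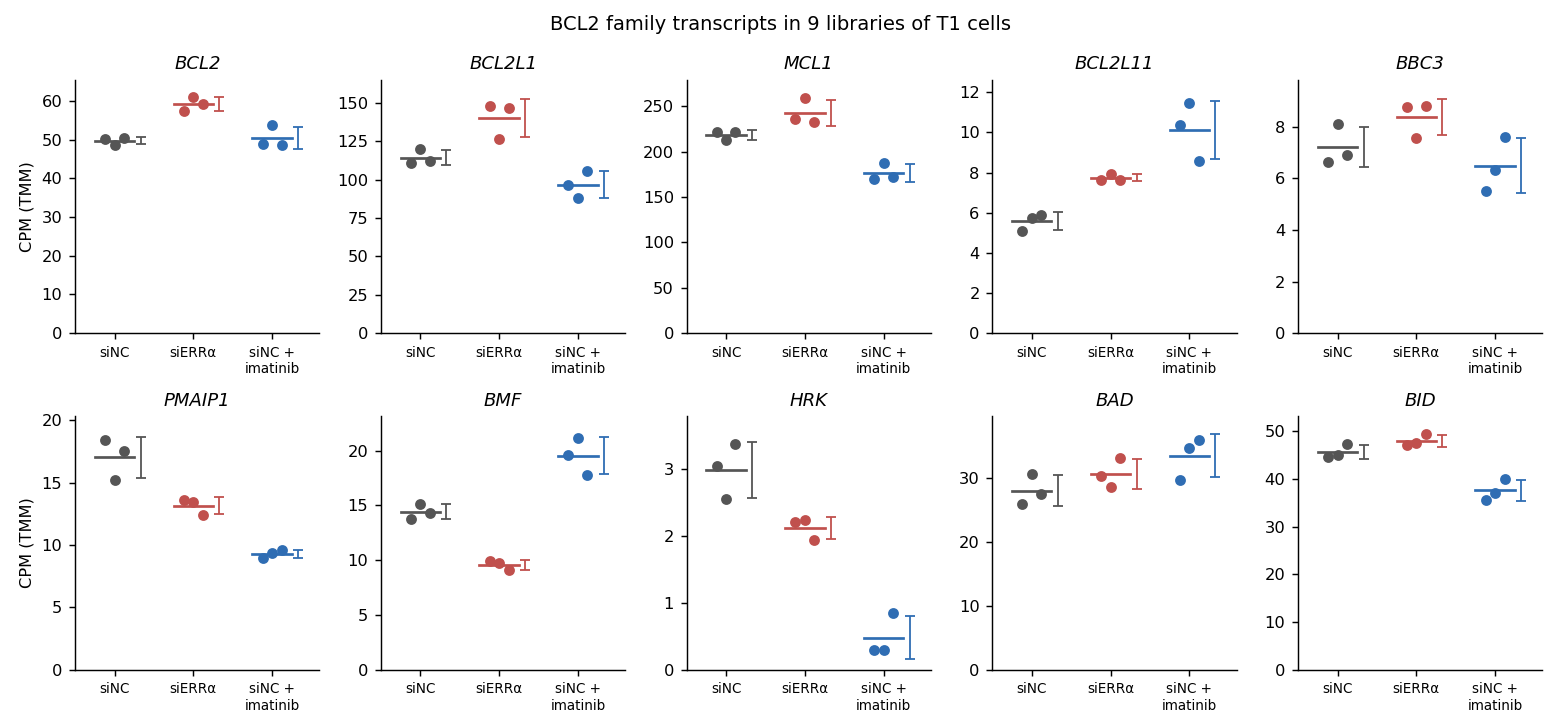
Level of each of the 10 genes in CPM (y axis, linear, from 0) in the 3 siNC, 3 siERRα and 3 imatinib libraries; points are libraries, horizontal lines group means and bars 1 SD. BMF goes down in siERRα and up with imatinib, BCL2L11 goes up in both, and HRK is close to the bottom of its axis with imatinib.

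**Figure D2:**
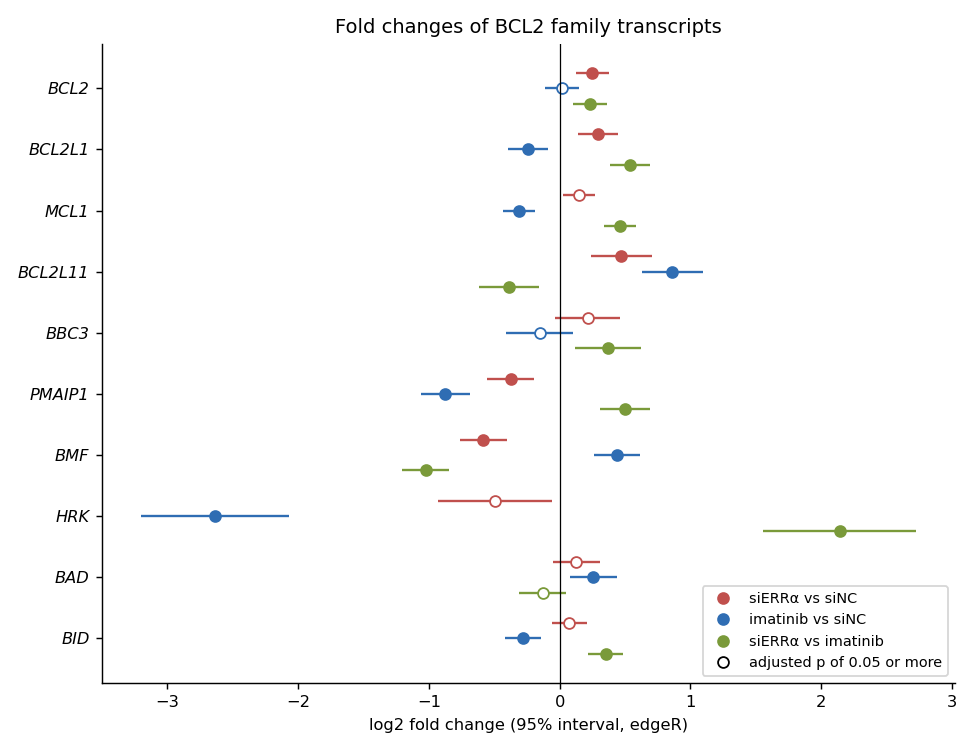
Log2 fold change (x axis) with its 95% interval for each gene in the 3 comparisons; filled points have an adjusted p under 0.05 from edgeR. The intervals of HRK are the widest, and those of BMF lie on opposite sides of 0 for knockdown and imatinib.

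BCL2, which encodes the founding survival protein, lies on chromosome 18 of GRCh38 from 63123346 to 63320128 on the minus strand. It stood at 50.1, 48.8 and 50.5 CPM in siNC, at 57.4, 61.1 and 59.3 CPM in siERRα and at 48.9, 53.8 and 48.6 CPM with imatinib. All 3 siERRα libraries were above the other 6, and the siNC and imatinib ranges overlapped. The gene was 1.19-fold higher after knockdown (log2 fold change 0.25, SE 0.06, edgeR adjusted p = 0.00549). With imatinib the log2 fold change was 0.02, with a 95% interval from −0.11 to 0.15 (edgeR adjusted p = 0.849). The direct comparison put siERRα above imatinib by 0.23 on the log2 scale (edgeR adjusted p = 0.0038).

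BCL2L1 encodes BCL-XL, a survival protein of the outer mitochondrial membrane, and lies on chromosome 20 from 31664452 to 31723989, minus strand. It stood at 111, 120.1 and 112 CPM in siNC, at 148, 126 and 147 CPM in siERRα and at 96.4, 88.1 and 106 CPM with imatinib. None of the 3 ranges overlapped, with siERRα highest and imatinib lowest. It rose 1.23-fold after knockdown (log2 fold change 0.30, SE 0.07, edgeR adjusted p = 0.00523) and was 1.18-fold lower with imatinib (log2 fold change −0.24, edgeR adjusted p = 0.0116). The imatinib call was lost without siNC library S2 (edgeR adjusted p = 0.0502) and without imatinib library S17 (0.0779), at log2 fold changes of −0.21 and −0.18. Between siERRα and imatinib the log2 difference was 0.54 (SE 0.07, edgeR adjusted p = 4.58e-06).

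MCL1 encodes a short-lived survival protein that binds NOXA and BIM, and lies on chromosome 1 from 150560895 to 150579738, minus strand. Its levels were 222, 213 and 222 CPM in siNC, 236, 259 and 233 CPM in siERRα and 170.1, 187 and 172 CPM with imatinib. The groups did not overlap, with imatinib lowest. Imatinib lowered it 1.24-fold (log2 fold change −0.31, SE 0.06, edgeR adjusted p = 2.62e-04). After knockdown its log2 fold change of 0.15 had a 95% interval from 0.03 to 0.27 and did not pass (edgeR adjusted p = 0.0687), although each siERRα library was above each siNC library. The log2 difference between siERRα and imatinib was 0.46 (edgeR adjusted p = 1.95e-06). Thus these 3 survival genes were all higher in siERRα than with imatinib by the direct test, in which 25.6% of all genes were called higher. BCL2L2 (BCL-W), a survival gene outside the 10, was at −0.17 in that comparison and did not pass (edgeR adjusted p = 0.135).

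The start regions of 4 BH3-only genes are shown because their transcripts passed the test with imatinib and carried the largest fold changes among the members. Windows run from 250 bases before to 50 after a transcript start, from RefSeq on GRCh38.p14. Of the 10 members 9 had at least 1 window, 16 windows in all. The start used for BCL2L11, 111120914, lies inside the gene as GENCODE draws it, from 111119378 on the plus strand. Capitals mark GTAAACA, letters bound by forkhead factors such as FOXO3, in BCL2L11, and TGACGT (here as its reverse, ACGTCA), the core of the cAMP response element, in PMAIP1. The coordinates are chr2:111120664-111120963 (plus strand) for BCL2L11, chr15:40108830-40109129 (minus) for BMF, chr18:59899746-59900045 (plus) for PMAIP1 and chr12:116881392-116881691 (minus) for HRK.
BCL2L11: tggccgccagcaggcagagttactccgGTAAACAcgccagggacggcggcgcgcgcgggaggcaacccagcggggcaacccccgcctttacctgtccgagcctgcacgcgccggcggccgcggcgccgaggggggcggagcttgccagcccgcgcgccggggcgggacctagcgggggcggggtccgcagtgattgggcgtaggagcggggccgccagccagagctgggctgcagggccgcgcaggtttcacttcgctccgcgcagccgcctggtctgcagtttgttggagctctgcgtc
BMF: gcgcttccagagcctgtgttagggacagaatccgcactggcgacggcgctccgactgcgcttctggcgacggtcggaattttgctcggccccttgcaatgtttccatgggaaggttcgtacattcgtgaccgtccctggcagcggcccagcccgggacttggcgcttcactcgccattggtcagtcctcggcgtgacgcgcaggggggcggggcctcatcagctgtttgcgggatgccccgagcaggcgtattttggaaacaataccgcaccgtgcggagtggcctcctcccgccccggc
PMAIP1: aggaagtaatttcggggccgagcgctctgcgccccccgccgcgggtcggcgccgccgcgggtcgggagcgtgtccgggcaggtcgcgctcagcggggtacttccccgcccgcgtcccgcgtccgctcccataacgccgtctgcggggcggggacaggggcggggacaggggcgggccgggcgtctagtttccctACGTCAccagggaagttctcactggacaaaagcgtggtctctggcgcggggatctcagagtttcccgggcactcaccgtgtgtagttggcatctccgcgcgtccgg
HRK: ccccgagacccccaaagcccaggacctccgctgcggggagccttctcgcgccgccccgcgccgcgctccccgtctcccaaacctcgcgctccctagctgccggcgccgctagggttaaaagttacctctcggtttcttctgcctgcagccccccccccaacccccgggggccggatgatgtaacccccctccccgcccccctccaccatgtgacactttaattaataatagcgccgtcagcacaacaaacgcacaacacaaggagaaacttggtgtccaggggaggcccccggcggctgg
Both strands were searched. GTAAACA or its reverse TGTTTAC was in 1 of the 16 member windows, that of BCL2L11, and in 3.42% of 35116 windows of all genes. In BCL2L11 it lay 223 bases before the transcript start used. The ERR binding core AAGGTCA or its reverse TGACCTT was in 0 of the 16 and in 3.92% of all. TGACGT was added after the levels had been seen. It was in 3 of the 16 member windows, from BAD and PMAIP1, and in 7.98% of all windows. The BAD windows overlap and hold the same copy, and the copy in PMAIP1 lay 56 bases before the start. These are matches of letters, not sites shown to be bound, and the windows of BMF and HRK shown held none of the 3 motifs.

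BCL2L11 encodes BIM, which binds every survival member and can engage the pore formers, and lies on chromosome 2 from 111119378 to 111168444 on the plus strand. It stood at 5.08, 5.75 and 5.89 CPM in siNC, at 7.63, 7.93 and 7.64 CPM in siERRα and at 10.4, 11.5 and 8.55 CPM with imatinib. The 3 groups were in this order without overlap. It rose 1.39-fold after knockdown (log2 fold change 0.47, SE 0.11, edgeR adjusted p = 0.00416) and 1.81-fold with imatinib (log2 fold change 0.86, SE 0.11, edgeR adjusted p = 4.86e-06). The direct comparison put siERRα below imatinib by 0.39 on the log2 scale (SE 0.11, edgeR adjusted p = 0.00536). BCL2L11 was the 1 member called higher in both comparisons with siNC, which share their control libraries. Of all genes 11.4% were called higher after knockdown and 21.4% with imatinib, and the share called higher in both was not counted.

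Of the survival genes, BCL2 and BCL2L1 passed after knockdown, and BCL2L1 and MCL1 with imatinib. BCL2L11 was therefore also set against each survival gene within a library, as a ratio of counts per kilobase of exon. Such a ratio does not depend on scaling between libraries. BIM transcripts were 2.11%, 2.50% and 2.45% of those of MCL1 in siNC, 2.98%, 2.83% and 3.03% in siERRα and 5.62%, 5.64% and 4.59% with imatinib. The mean ratio with imatinib was 2.24 times that in siNC, and the mean ratio after knockdown 1.25 times. Against BCL2L1 the means were 3.03% ± 0.219 in siNC, 3.45% ± 0.396 in siERRα and 6.60% ± 1.53 with imatinib (SD, n = 3 each), and here the siNC and siERRα ranges overlapped. Against BCL2 they were 20.9% ± 1.73, 24.4% ± 0.396 and 37.5% ± 3.94, with no overlap. The ratios are descriptions of transcripts and were not tested. Their size depends on the exon lengths used, but the factor between groups does not.

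**Figure D3:**
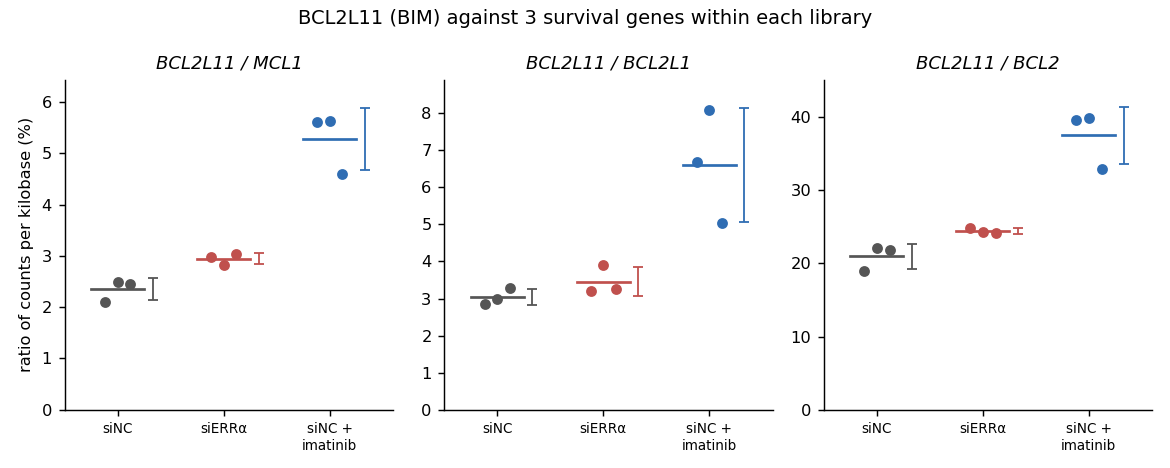
Ratio of BCL2L11 to MCL1, BCL2L1 and BCL2 in percent (y axes, linear, from 0), counts per kilobase of exon, for each library; lines are group means and bars 1 SD. The imatinib libraries are above all others in each panel, and siNC and siERRα overlap in the panel of BCL2L1.

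BMF encodes a BH3-only protein held on myosin motors until the cytoskeleton is disturbed, and lies on chromosome 15 from 40087890 to 40108892, minus strand. It stood at 13.8, 15.1 and 14.3 CPM in siNC, at 9.92, 9.78 and 9.08 CPM in siERRα and at 19.6, 21.2 and 17.8 CPM with imatinib. The groups were clear of each other, with the knockdown lowest and imatinib highest. It was 1.5-fold lower after knockdown (log2 fold change −0.58, SE 0.09, edgeR adjusted p = 5.20e-05) and 1.35-fold higher with imatinib (log2 fold change 0.44, SE 0.08, edgeR adjusted p = 3.04e-04). The direct difference, a log2 fold change of −1.02 for siERRα against imatinib (SE 0.09, edgeR adjusted p = 9.23e-09), had the smallest p of any member in that comparison. The smooth muscle marker sum given above, mostly ACTA2 and TAGLN, was also lowest in siERRα and highest with imatinib. CNN1 and MYH11, also in that sum, did not pass with imatinib, and any link of these markers to BMF was not tested.

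PMAIP1 encodes NOXA, which binds MCL1 above all and lies on chromosome 18 from 59899996 to 59904305, plus strand. Its levels were 18.4, 15.2 and 17.5 CPM in siNC, 13.6, 13.5 and 12.4 CPM in siERRα and 8.95, 9.38 and 9.59 CPM with imatinib. Both treatments lay below siNC without overlap, and imatinib lay below siERRα. It was 1.3-fold lower after knockdown (log2 fold change −0.37, SE 0.09, edgeR adjusted p = 0.00319) and 1.83-fold lower with imatinib (log2 fold change −0.87, SE 0.09, edgeR adjusted p = 2.51e-07). SiERRα stood above imatinib by 0.50 on the log2 scale (SE 0.09, edgeR adjusted p = 1.16e-04). PMAIP1 was the 1 member called lower in both comparisons with siNC, which share their control libraries. Of all genes 12.6% were called lower after knockdown and 20.3% with imatinib, and the share called lower in both was not counted. HRK, given next, was also below siNC without overlap in both, but its knockdown change did not pass.

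HRK (harakiri), a BH3-only gene known best from neurons, lies on chromosome 12 from 116856144 to 116881441, minus strand, and was the scarcest of the 10. Its counts were 136, 100 and 170 in siNC, 105, 106 and 75 in siERRα, and 11, 11 and 31 in the imatinib libraries S16, S17 and S18. In CPM these were 3.04, 2.54 and 3.37, then 2.20, 2.23 and 1.93, then 0.298, 0.296 and 0.847. The groups did not overlap, and S18 held more than the other imatinib libraries. HRK was 6.22-fold lower with imatinib (log2 fold change −2.64, SE 0.27, 95% interval −3.20 to −2.07, edgeR adjusted p = 2.56e-07), which was the largest change of any member. Without S18 the log2 fold change was −3.32, and without S16 or S17 it was −2.39. After knockdown it was −0.50 (SE 0.21) and did not pass (edgeR adjusted p = 0.0952), but it passed without imatinib library S18, which is in neither group of this comparison (log2 fold change −0.50, edgeR adjusted p = 0.0282), with no filter on low counts (0.045) and with the 6 compared libraries alone (0.026). The direct difference was 2.14 (SE 0.28, edgeR adjusted p = 2.90e-06), and 2.82 without S18. In bulk RNA, fewer cells with HRK transcripts and fewer transcripts per cell cannot be told apart, here as for every gene below.

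BBC3 encodes PUMA, a BH3-only protein that binds every survival member, and lies on chromosome 19 from 47220822 to 47232766, minus strand. It stood at 6.64, 8.12 and 6.93 CPM in siNC, 8.76, 7.57 and 8.83 CPM in siERRα and 5.50, 6.33 and 7.62 CPM with imatinib, and every pair of groups overlapped. Its log2 fold change was 0.22 after knockdown (95% interval −0.03 to 0.47, edgeR adjusted p = 0.210) and −0.15 with imatinib (−0.41 to 0.10, edgeR adjusted p = 0.342). SiERRα was above imatinib by 0.37 (edgeR adjusted p = 0.0157). That call was lost without siERRα library S4 (edgeR adjusted p = 0.0537) or S6 (0.0636), or imatinib library S16 (0.109) or S17 (0.053).

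BAD, whose protein is switched off by phosphorylation downstream of growth factors, lies on chromosome 11 from 64269830 to 64284704, minus strand. Its levels were 25.9, 30.6 and 27.4 CPM in siNC, 30.2, 28.5 and 33.05 CPM in siERRα and 29.6, 34.7 and 35.9 CPM with imatinib, with overlap between all pairs. It passed with imatinib at a log2 fold change of 0.26 (SE 0.09, edgeR adjusted p = 0.0214). The call was lost without siNC library S1 (edgeR adjusted p = 0.110) or S3 (0.0804) and without imatinib library S17 (0.0742) or S18 (0.124). After knockdown the log2 fold change was 0.13 (95% interval −0.05 to 0.31, edgeR adjusted p = 0.310).

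BID links the death receptors to the mitochondrion once caspase 8 has cut its protein, and the gene lies on chromosome 22 from 17734138 to 17774770, minus strand. It stood at 44.5, 45.0 and 47.3 CPM in siNC, 47.1, 47.5 and 49.4 CPM in siERRα and 35.7, 37.1 and 39.98 CPM with imatinib. The imatinib libraries were all below the others, and siNC and siERRα overlapped. It was 1.21-fold lower with imatinib (log2 fold change −0.28, SE 0.06, edgeR adjusted p = 0.0018). After knockdown the log2 fold change was 0.07 (95% interval −0.06 to 0.21, edgeR adjusted p = 0.459), and siERRα stood above imatinib by 0.35 (edgeR adjusted p = 1.40e-04).

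Some members share exon bases with a neighbour in GENCODE release 44, and the strand setting of the counting is not given in the sources used here, so reads from an overlapping pair cannot be told apart. On the opposite strand, BCL2L1 shares 1735 bases with ABALON, BCL2L11 727 with MIR4435-2HG, BMF 461 with BMF-AS1 and BAD 404 with GPR137. MCL1 shares 328 bases with ADAMTSL4-AS1 on its own strand and 43 with ADAMTSL4 on the other. BBC3 overlaps the small RNA genes MIR3190 and MIR3191. BCL2, PMAIP1, HRK and BID share none.

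Levels of different genes were set side by side as CPM per kilobase of exon. In siNC the order was MCL1 at 35.2, BCL2L1 at 27.3, BAD at 16.4, BID at 10.3, PMAIP1 at 7.79, BCL2 at 3.95, BMF at 2.65, BBC3 at 2.27, BCL2L11 at 0.827 and HRK at 0.436 CPM per kilobase. The ranges of neighbours were separate except those of BMF and BBC3. The order in siERRα was the same apart from BBC3 at 2.63, now above BMF at 1.76 CPM per kilobase, with separate ranges throughout. With imatinib the order of means was that of siNC, but BCL2L1 at 23.1 and BAD at 19.5 overlapped, as did PMAIP1 at 4.26 with BCL2 at 3.998, and BCL2 with BMF at 3.58. HRK was at 0.0701 CPM per kilobase there, beneath BCL2L11 at 1.501. BCL2L11 was next to last by level in each group.

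**Figure D4:**
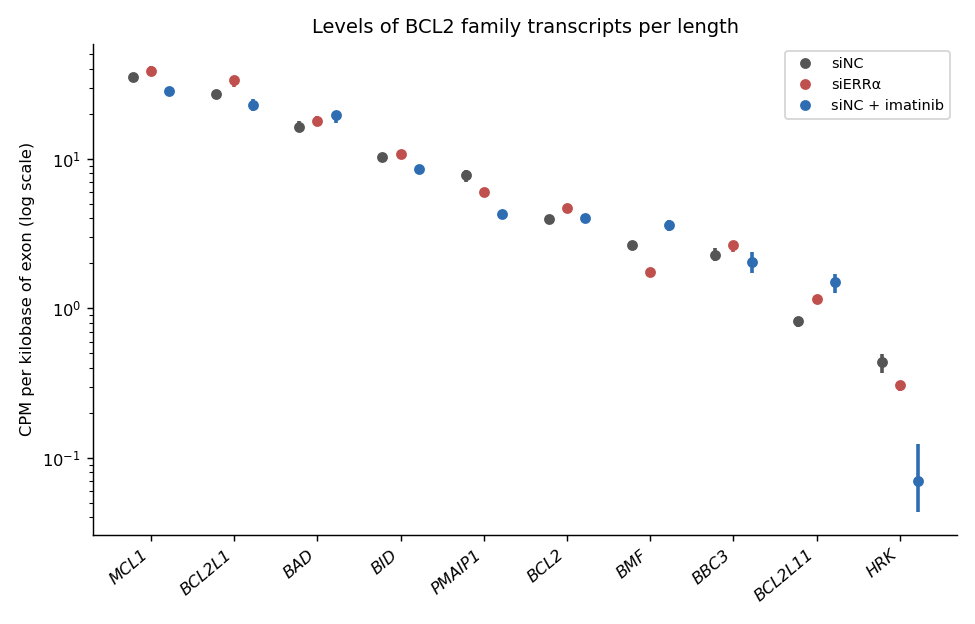
Mean level of each gene in CPM per kilobase of exon (y axis, log scale) in siNC, siERRα and imatinib, genes in their siNC order; vertical lines span the lowest to the highest library. MCL1 is at the top in each group (35.2 in siNC) and HRK at the bottom (0.436 in siNC, 0.0701 with imatinib).

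The 3′ UTRs were searched for 1 string, ATGTTCT, chosen with earlier results of the knockdown comparison known. It was in the canonical 3′ UTR of 3 of the 10 members and in 16.8% of 18875 UTRs in GENCODE release 44. These 3 UTRs are long, with 5379 bases in HRK, 5279 in BCL2 and 3897 in BMF. Members without a copy ran from 379 bases in BAD to 4213 in BCL2L11, and the shares take no account of length. BMF held 2 copies in exon 5 (chr15:40087970-40087976 and chr15:40091452-40091458, minus strand), HRK held 1 in exon 2 (chr12:116857647-116857653, minus) and BCL2 held 1 in exon 3 (chr18:63128276-63128282, minus). The copies are shown with their flanks, and capitals mark the string.
BMF, copy at 40087970: tttatgtgtttATGTTCTtcacatgcata
BMF, copy at 40091452: atccgttagtgATGTTCTctgggaagtgg
HRK: tagctgatctcATGTTCTcctattattat
BCL2: gctccacctggATGTTCTgtgcctgtaaa
After knockdown BMF fell, HRK was at −0.50 and did not pass, and BCL2 rose by 0.25 on the log2 scale. PMAIP1, the other member that fell, held no copy. Because the string was chosen with knockdown results known, these values are no test of it, and any role of the string was not tested.

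The rest of the pathway was read from lists that were written with earlier results of these data known. Over all genes tested, 23.9% were called after knockdown, 41.7% with imatinib and 52.2% in siERRα against imatinib. Of the pore formers, BAX, BAK1 and BOK, 0 of 3 passed after knockdown, with log2 fold changes of −0.08, 0.05 and −0.04 and adjusted p from 0.562 to 0.939 in edgeR. At an unadjusted p under 0.05 the count was also 0, and DESeq2 and limma-voom called none of the 3. With imatinib BAK1 fell by 0.31 (SE 0.08, edgeR adjusted p = 0.00398), BAX was at −0.16 (0.143) and BOK at 0.57 (0.0803). BAK1 was higher in siERRα than with imatinib by 0.36 on the log2 scale (edgeR adjusted p = 7.78e-04). Of the other survival genes only BCL2L2 (BCL-W) had enough counts to be tested, and its log2 fold changes of −0.16 after knockdown and 0.01 with imatinib did not pass. Of 8 further BH3 or BCL2-like genes 5 were tested. After knockdown 0 passed in edgeR, 0 at an unadjusted p under 0.05 and 0 in DESeq2 or limma-voom, and with imatinib BNIP3L, a mitophagy receptor, rose by 0.52 (edgeR adjusted p = 1.39e-04) while BCL2L13 fell by 0.25 (edgeR adjusted p = 0.00314). Both differed between siERRα and imatinib, by −0.63 for BNIP3L and 0.29 for BCL2L13, and BCL2L12 was higher in siERRα by 0.26 (edgeR adjusted p = 0.00922), a call lost without siERRα library S6 (0.08).

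Downstream, 15 of 16 genes for the apoptosome, caspases and their inhibitors were tested. After knockdown 2 rose and 2 fell, beside 11.4% and 12.6% of all genes. BIRC2 (cIAP1) fell by 0.68 (edgeR adjusted p = 5.99e-05) and BIRC5 (survivin) rose by 0.32 (edgeR adjusted p = 1.17e-04). CASP2 passed at 0.16 (edgeR adjusted p = 0.047), and 12 of its 16 alternative settings lost that call, among them each of the 9 that leave out a library but the one without S5, with adjusted p from 0.0507 to 0.206. With imatinib 4 rose and 2 fell, beside 21.4% and 20.3% of all genes. CYCS (cytochrome c) fell by 0.45 (edgeR adjusted p = 1.31e-05), and APAF1, the scaffold of the apoptosome, and CASP2 rose by 0.25 and 0.26. BIRC2 fell by 0.31 (edgeR adjusted p = 0.0188), a call lost without siNC library S1 (0.0654) or imatinib library S16 (0.106), where the log2 fold change was −0.28 and −0.17. In the direct comparison 6 were higher and 3 lower in siERRα, beside 25.6% and 26.6% of all genes, with CYCS at 0.30 and AIFM1 at 0.24.

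Upstream of BID, 8 of 10 genes of the death receptor arm were tested. After knockdown 1 rose and 2 fell, beside 11.4% and 12.6% of all genes. After knockdown RIPK1 fell by 0.50 (edgeR adjusted p = 1.26e-05), TNFRSF1A (TNF receptor 1) fell by 0.30 and TNFRSF10B (the TRAIL receptor DR5) rose by 0.35 (edgeR adjusted p = 8.16e-04). With imatinib 2 rose and 4 fell, beside 21.4% and 20.3% of all genes, with a list median of −0.39. FAS stood at 55.6, 52.1 and 56.8 CPM in siNC and at 23.9, 23.9 and 25.5 CPM with imatinib, a log2 fold change of −1.17 (SE 0.07, edgeR adjusted p = 5.56e-10). TNFRSF10B fell by 0.86, TNFRSF1A by 0.57 and CASP8, the protease that cuts BID, by 0.56 (edgeR adjusted p = 9.71e-05). Against imatinib, siERRα was higher by 1.29 for FAS, 1.21 for TNFRSF10B and 0.66 for CASP8, and lower by 0.71 for RIPK1. In all 5 genes were higher and 2 lower, beside 25.6% and 26.6% of all genes.

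Proteins that bind or modify the family were read from 22 genes, of which 20 were tested. After knockdown 4 rose and 3 fell in edgeR, beside 11.4% and 12.6% of all genes. DESeq2 called 7 higher and limma-voom 5, with 3 lower in each. PIM1, a kinase that phosphorylates BAD, fell by 0.48 (edgeR adjusted p = 1.19e-04), PPP3CA, a calcineurin subunit, fell by 0.32 and AKT1 fell by 0.25 (edgeR adjusted p = 0.0036). PIM2 rose by 0.34 (edgeR adjusted p = 0.00861), a call lost without siNC library S1 (0.0538) or S3 (0.0619). With imatinib 4 rose and 7 fell, beside 21.4% and 20.3% of all genes. The falls were led by BAG3, a co-chaperone, at −0.78 (edgeR adjusted p = 2.31e-07) and PIM3 at −0.68. DYNLL2, the dynein light chain that tethers BMF, rose by 0.31 (edgeR adjusted p = 5.56e-05), and VDAC2, which holds BAK1 at the membrane, fell by 0.29. In the direct comparison 10 were higher and 3 lower in siERRα, beside 25.6% and 26.6% of all genes. Among them were BAG3 at 0.81, PIM3 at 0.56, AKT1 at −0.42 and DYNLL2 at −0.28.

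Of 13 transcription factors of BH3-only genes 12 were tested, and 2 rose and 2 fell after knockdown, beside 11.4% and 12.6% of all genes. FOXO3, known to act on BCL2L11, rose by 0.32 (edgeR adjusted p = 0.00151), FOXO1 fell by 0.46 (edgeR adjusted p = 0.00199), JUN fell by 0.55 (edgeR adjusted p = 9.35e-06) and E2F1 rose by 0.36. With imatinib 7 rose and 3 fell, beside 21.4% and 20.3% of all genes, with a list median of 0.54. FOXO1, FOXO3, FOXO4 and FOXO6 all rose, by 0.68, 0.59, 0.49 and 1.43 (edgeR adjusted p = 1.21e-06 for FOXO3). TP73 rose by 1.31 and E2F1 by 0.87, whereas DDIT3 (CHOP), a stress factor, went from 12.1, 13.5 and 12.7 CPM in siNC to 4.20, 3.26 and 4.29 CPM, a log2 fold change of −1.71 (SE 0.12, edgeR adjusted p = 3.23e-09), and JUN fell by 0.72. Against imatinib, siERRα was higher for DDIT3 by 1.58 and lower for FOXO1 by 1.14, TP73 by 1.16 and FOXO6 by 1.47. FOXO3 was lower too, by 0.26 (edgeR adjusted p = 0.00288). In all 2 genes were higher and 6 lower, beside 25.6% and 26.6% of all genes.

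Targets of FOXO factors were tested for 17 of 19 genes because BCL2L11 is one. After knockdown 4 rose and 6 fell, beside 11.4% and 12.6% of all genes. Log2 fold changes were 0.81 for SESN3, 0.61 for PIK3IP1, −0.60 for ERBB3 and −0.51 for RBL2 (edgeR adjusted p = 1.36e-05 for RBL2). With imatinib 13 rose and 2 fell, beside 21.4% and 20.3% of all genes, with a list median of 0.32. ERBB3 was at 1.09, INSR at 0.98, TXNIP at 0.44 and GADD45B at −0.78 (edgeR adjusted p = 4.66e-08). The direct comparison gave 4 higher and 10 lower in siERRα, beside 25.6% and 26.6% of all genes. ERBB3 was at −1.68, INSR at −1.33 (edgeR adjusted p = 1.57e-09), TXNIP at −0.65 and GADD45B at 0.74.

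ERK output genes were read because ERK signalling is known to limit BIM and BMF. After knockdown 4 of the 14 tested rose and 4 fell, beside 11.4% and 12.6% of all genes. CCND1 was at −0.51, SPRY2 at −0.33, PHLDA1 at −0.27 and ETV5 at 0.30. With imatinib 0 rose and 13 fell in edgeR, beside 21.4% and 20.3% of all genes, and the list median was −0.93. No gene of the list rose at an unadjusted p under 0.05 either, nor in DESeq2 or limma-voom. DUSP6, the ERK phosphatase, stood at 146, 145 and 147 CPM in siNC, at 155, 161 and 145 CPM in siERRα and at 42.4, 39.6 and 44.4 CPM with imatinib, a log2 fold change of −1.79 (SE 0.06, edgeR adjusted p = 1.74e-13). DUSP5 fell by 1.87, SPRY2 by 1.21 and SPRY4 by 0.92. In the direct comparison 11 were higher and 0 lower in siERRα, beside 25.6% and 26.6% of all genes. DUSP5 was at 2.09, DUSP6 at 1.87, ETV4 at 1.49 and SPRY4 at 0.99.

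**Figure D5:**
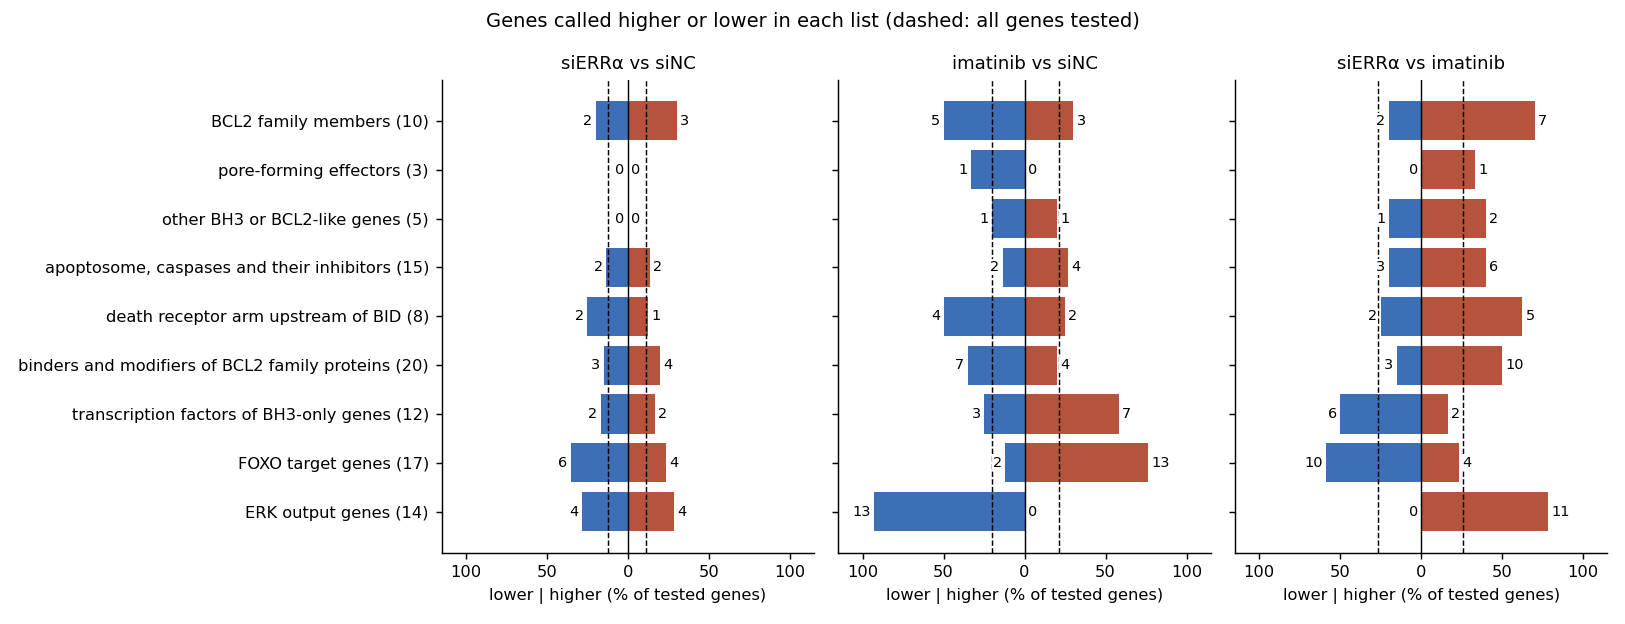
Percent of tested genes called higher (right of 0) and lower (left of 0) in each list for the 3 comparisons, each bar marked with its count of genes and each list with the number tested; dashed lines are the shares over all genes tested. With imatinib 13 of 14 ERK output genes fell and 13 of 17 FOXO targets rose, while after knockdown 0 of 3 pore formers were called.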

How the data were processed

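PolyA RNA of 9 libraries, 3 in each of 3 groups, was sequenced by the authors as paired reads. Reads had been mapped by the authors to GRCh38 using STAR 2.7.3a and assigned to genes using featureCounts 2.0.1, per the labels and methods. The deposited values were raw counts, 1 column per library. Which annotation release was used, whether strand was taken into account, and how pairs and reads with several matches were treated is not stated in these sources. A deposited sheet of group labels was not used. Columns were matched to samples by the S number that titles and columns share. The columns also carry the numbers 1 to 3, but deviations of libraries with the same number correlated from −0.0996 to 0.147, so they were not treated as pairs.

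Counts were scaled by TMM, filtered with filterByExpr (minimum count 10, minimum total 15) and fitted together for the 3 groups in edgeR 4.0.16 under R 4.3.3 (robust quasi-likelihood F-test, 2-sided, Benjamini-Hochberg over 16976 genes). The study used DESeq2 and also asked for an absolute log2 fold change of 0.5. Standard errors came from the fold change and its F, and SDs were taken within a group. At totals of 37527236 to 49363002 counts, genes near the floor of 3 counts carry a large counting error. Replicate libraries of a group differed by more than sampling noise, with chi-square per degree of freedom from 3.52 to 14.8.

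Alternative settings were the size factors of DESeq2 within edgeR, the Wald test of DESeq2 1.42.0, limma-voom (limma 3.58.1), no filter, at least 10 counts in every library, the 6 compared libraries alone, the library number as a replicate block, the longest transcript as gene length, and leaving out 1 library at a time. The test was tried on simulated data with known changes.

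Positions, exon lengths and 3′ UTRs came from GENCODE release 44, promoter windows from RefSeq. Genes named are the 10 members, every gene of a list of at most 5, and for longer lists up to 4 called genes per comparison with the smallest p. Outside this rule, FOXO1, FOXO3, FOXO4 and FOXO6 are given with imatinib, and FOXO3 in the direct comparison. The results of a few listed genes and of 1 list are not reported here. The members and lists were chosen with earlier results of these data known. DES, a smooth muscle marker, was too scarce to be tested. Python 3.11.15 with numpy 2.4.6, pandas 2.3.3 and matplotlib 3.10.9 made the sequence tables and figures.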

Additional observations from a re-analysis of the deposited data

How the results depend on the processing

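The number of members called ranged from 5 to 6 after knockdown, from 6 to 8 with imatinib and from 8 to 9 between siERRα and imatinib over the 16 alternatives. Of the members' alternative values 465 kept direction and call, 10 lost the call, 3 gained it and 2 changed sign. The calls lost or gained were those of HRK, BCL2L1, BAD and BBC3 given above, and the cause was not tested. Signs changed only where nothing was called. With 1 library left out, the log2 fold change with imatinib ran from −0.0313 to 0.0408 for BCL2 and from −0.0668 to 0.0593 for BCL2L2, that after knockdown from −0.132 to 0.00747 for BAX and from −0.167 to 0.164 for BOK, and that of siERRα against imatinib from −0.00789 to 0.171 for BAX. BOK passed as lower in siERRα in the direct comparison under 4 settings (edgeR adjusted p from 0.0347 to 0.0486). BCL2L2 passed as lower in siERRα there without siERRα library S5 (log2 fold change −0.24, edgeR adjusted p = 0.0382). For other named genes 2059 values were unchanged in direction and call, 17 lost the call, 5 gained it and 7 changed sign. With the longest transcript in place of all exon bases, BIM was 2.81% of MCL1 in siERRα, and 16.2%, 18.8% and 28.9% of BCL2 in siNC, siERRα and imatinib, and 2 places of the level order changed in each group. The library number as a replicate block gave 3652, 6764 and 8612 genes called in the 3 comparisons, against 4064, 7072 and 8865, and changed no member's call. HRK at 11 counts is the 1 member where depth limits the value. All values are of transcripts, and protein was not measured here.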

Other observations

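Markers of the tumour's own lineage also moved with imatinib. Of 8 GIST markers 5 rose and 2 fell, beside 21.4% and 20.3% of all genes. PRKCQ was at 0.73, ANO1 (DOG1) at 0.61, ETV1 at 0.55 and CD34 at −0.37 on the log2 scale (edgeR adjusted p = 1.29e-05 for CD34). After knockdown 3 rose and 0 fell, beside 11.4% and 12.6% of all genes. FOXF1 rose by 0.27, ETV1 by 0.29 and PRKCQ by 0.32 (edgeR adjusted p = 0.00963). In the direct comparison 2 were higher and 5 lower in siERRα, beside 25.6% and 26.6% of all genes. ANO1 was at −0.53, GPR20 at −0.44, CD34 at 0.43 and FOXF1 at 0.42. Of the smooth muscle markers, ACTA2 fell by 0.59, TAGLN by 0.63 and CNN1 by 0.97 after knockdown (edgeR adjusted p = 0.00128 for CNN1), while ACTA2 rose by 0.24 and TAGLN by 0.45 with imatinib, CNN1 was at −0.14 with imatinib and did not pass (edgeR adjusted p = 0.586), and MYH11 did not pass in either. Of 6 leukocyte, endothelial and epithelial markers tested, after knockdown 0 passed in edgeR, DESeq2 or limma-voom (1 before adjustment in edgeR). With imatinib 3 rose and 2 fell, beside 21.4% and 20.3% of all genes.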
